A study of Mus musculus with 4 samples.

Results

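The chemokines Ccl2, Ccl7, Ccl8 and Ccl12 and the receptor Ccr2 were followed through single-cell RNA sequencing of colonic lamina propria leukocytes from mice with dextran sulfate sodium (DSS) colitis. These 5 genes were taken by symbol from the 32285 genes in the count tables. The study compared AhR-null mice with wild type littermates, and AhR is the aryl hydrocarbon receptor. The series holds 4 samples, each of which carried the DSS treatment label and was a mixture of colons from 3 mice, taken on day 8 after 7 days of 2% DSS in drinking water. The labels gave an age of 10 weeks and the study's methods 8 weeks. The labels used here number the samples but do not give the genotype of each, so all 4 stay without a group, and they are called samples 1 to 4. No test between samples could be made, and each value below is given per sample. There was no sample without colitis, so nothing here measures what DSS did to these genes. Intervals are exact 95% intervals that cover counting error only.

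Ccl2, Ccl7, Ccl8 and Ccl12 encode small secreted proteins of the CC chemokine family that draw monocytes out of the blood and bone marrow into tissue. Ccr2 is the main receptor for Ccl2, Ccl7 and Ccl12 and marks Ly6C-high monocytes, which feed the macrophage pool of the inflamed gut. Mouse Ccl8 is known to act mainly through Ccr8, a receptor of some T cells. Ccl12 is a mouse gene with no direct counterpart in humans.

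The 4 ligand genes lie on the plus strand of chromosome 11 within 81229 bases (GRCm38, GENCODE annotation). Ccl2 is at chr11:82035571-82037453, Ccl7 at chr11:82045712-82047525, Ccl12 at chr11:82101845-82103400 and Ccl8 at chr11:82115185-82116799, with 3 coding exons each. Ccr2 is at chr9:124101950-124113557, also on the plus strand, with 1 coding exon. Aligned pair by pair, the coding sequences of the ligands were 68.8% to 72.1% identical, and the longest run of bases shared by 2 transcripts was 11 to 23 bases. The 54 coding bases around the adjacent cysteine codons that give CC chemokines their name are shown because they let the reader see how close the 4 transcripts are. The cysteine codons are in capitals, and each stretch crosses the junction of the first 2 exons.
Ccl2: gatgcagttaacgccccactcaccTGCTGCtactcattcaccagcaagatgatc
Ccl7: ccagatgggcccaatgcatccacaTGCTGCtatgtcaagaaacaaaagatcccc
Ccl8: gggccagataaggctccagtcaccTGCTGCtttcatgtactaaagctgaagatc
Ccl12: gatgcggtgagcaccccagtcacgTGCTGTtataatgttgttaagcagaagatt

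Ccl8 and Ccl12 were the members whose transcripts sat most in 1 cell class (values below), and the 250 bases before their RefSeq start are shown for that reason (GRCm38.p6, plus strand, TATAAA in capitals). The Ccl8 window is chr11:82114935-82115184 and the Ccl12 window is chr11:82101595-82101844.
Ccl8: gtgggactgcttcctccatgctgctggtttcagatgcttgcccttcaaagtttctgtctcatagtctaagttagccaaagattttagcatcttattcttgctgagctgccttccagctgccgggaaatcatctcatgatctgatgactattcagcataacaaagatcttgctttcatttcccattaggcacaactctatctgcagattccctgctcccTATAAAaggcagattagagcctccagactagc
Ccl12: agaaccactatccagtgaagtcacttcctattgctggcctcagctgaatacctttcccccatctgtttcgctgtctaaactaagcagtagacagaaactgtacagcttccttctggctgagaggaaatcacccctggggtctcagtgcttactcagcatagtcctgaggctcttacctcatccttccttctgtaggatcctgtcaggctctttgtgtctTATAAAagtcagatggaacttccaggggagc
The TATAAA letters began 32 bases before the start of Ccl8 and 31 bases before that of Ccl12, and the windows were 65.2% identical over 230 aligned bases. TATAAA occurred on either strand in 12.4% of 32851 windows of the same length. GAGGAA, the core letters of a PU.1 motif, occurred once in each window and in 23.3% of all windows. The letters TTCNNNGAA (STAT) and TGANTCA (AP-1), which do not overlap the motifs above, had no match in these 2 windows and were in 7.02% and 6.75% of all windows. Ccl2 and Ccl7 are not in the promoter table used here.

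A total of 39550 cells were kept of 45229 deposited (7539 to 11824 per sample, median 5633.5 to 7084 unique molecular identifiers, UMIs, per cell). Between 0.271% and 0.423% of barcodes were shared by 2 samples. Each cell was placed in 1 of 16 classes by marker genes that did not include the 5 members, and 20.9% of kept cells stayed unplaced. The monocyte-macrophage class held 2507, 1397, 2855 and 1946 cells in samples 1 to 4, and 94.7% of them also fell in monocyte-macrophage clusters. Cells had been selected with CD45 beads, which should leave fibroblasts out, yet 59, 85, 304 and 139 cells carried fibroblast markers and are described as found. Levels are CPM, the UMIs of a gene scaled to a total of 1000000 UMIs, summed over a class in a sample, and a class was read in a sample where it had at least 50 cells. CPM levels are compared between cells for 1 gene at a time, since they are not scaled to transcript length.

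Fibroblasts and monocyte-macrophage cells carried most transcripts of the ligands. Ccl2 was highest in fibroblasts in 4 of 4 samples, at 1682, 1818, 3185 and 1862 CPM in samples 1 to 4. In monocyte-macrophage cells it stood at 99.3, 318, 170.5 and 460.3 CPM, lowest in sample 1 and highest in sample 4. The fibroblast level was 16.9, 5.71, 18.7 and 4.04 times the monocyte-macrophage level of the same sample. Because fibroblasts were few, monocyte-macrophage cells still held 57.7%, 57.4%, 28.4% and 65.3% of the Ccl2 UMIs of placed cells, against 34.0%, 35.3%, 63.0% and 23.6% in fibroblasts. Endothelial cells, which were numerous enough to be read only in samples 3 and 4, held 246 and 480.0 CPM of Ccl2. There the endothelial level was above the monocyte-macrophage level, by a small margin in sample 4, where the intervals of 414 to 553 and 449 to 472 CPM overlapped.

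Ccl7 was also highest in fibroblasts in 4 of 4 samples, with a smaller gap to monocyte-macrophage cells. Endothelial cells were below monocyte-macrophage cells here, at 17.9 and 260.0 CPM in samples 3 and 4. It stood at 997, 1566, 923 and 998 CPM in fibroblasts and at 70.8, 794, 116 and 376 CPM in monocyte-macrophage cells. Sample 2 was the highest in both classes, and there the fibroblast level was only 1.97 times (1.87 to 2.08) the monocyte-macrophage level. The other samples gave ratios of 14.1, 7.93 and 2.66. Of 10132 genes tested, 18.9% were past 2-fold higher in fibroblasts in every sample and 11.5% past 2-fold lower. Among the 5 members, Ccl2 was past 2-fold higher, Ccl12 and Ccr2 past 2-fold lower, and Ccl7 and Ccl8 neither. The summed level of 10 genes of dissociation and stress was also higher in fibroblasts in 4 of 4 samples. It was 9325, 9819, 9902 and 10790 CPM in fibroblasts, against 2076, 4153, 3409 and 4483 CPM in monocyte-macrophage cells. The part of stress in the fibroblast levels of Ccl2 and Ccl7 was not tested.

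Monocyte-macrophage cells held a larger part of the Ccl8 and Ccl12 UMIs of placed cells than of the Ccl2 and Ccl7 UMIs in 4 of 4 samples. For Ccl7 the part was 64.1%, 75.9%, 49.1% and 74.9%. Ccl8 stood at 26.6, 390.1, 83.2 and 133 CPM in monocyte-macrophage cells, which amounted to 77.8%, 89.0%, 87.0% and 88.8% of the Ccl8 UMIs of placed cells. In fibroblasts Ccl8 stood at 80.7, 59.3, 54.3 and 40.6 CPM, above monocyte-macrophage cells in sample 1 and below them in samples 2 to 4. Ccl12 stood at 33.0, 194, 25.1 and 68.6 CPM in monocyte-macrophage cells, with 97.7%, 94.4%, 90.7% and 95.4% of the UMIs of placed cells. In fibroblasts no Ccl12 UMI was counted in samples 1, 2 and 4, which allows up to 3.56, 2.92 and 2.59 CPM (3 counts), and sample 3 had 2 UMIs. So fibroblasts, the class highest in Ccl2 and Ccl7, had Ccl12 at or near 0. Ccl12 was the only member highest in monocyte-macrophage cells in every sample, which held for 4.73% of 12119 genes. Ccl2 and Ccl7 were highest in fibroblasts in every sample, which held for 14.9% of the same genes.

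B cells were taken as the background, and whether they make any of these ligands was not tested. B-cell levels ranged over the 4 samples from 2.62 to 18.2 CPM for Ccl2 and 1.81 to 12 for Ccl7. They ranged from 1.43 to 6.22 CPM for Ccl8 and 0.524 to 4.59 for Ccl12. T cells differed from B cells by less than counting error in 4 of 4 samples for Ccl2 and Ccl8. For Ccl7 they were lower beyond counting error in sample 4, at 0.567 times B cells (0.354 to 0.929). For Ccl12 they were lower in samples 3 and 4, at 0.227 (0.0806 to 0.662) and 0.213 (0.0513 to 0.836) times. The other samples were within counting error for Ccl7 and Ccl12. Neutrophils held more Ccl2 than B cells in samples 3 and 4, where the intervals did not overlap, at 31.4 and 31.7 CPM against 9.74 and 18.2. In samples 1 and 2 neutrophils stood at 3.94 and 8.10 CPM against 2.62 and 5.29 CPM in B cells, also higher, with overlapping intervals. The part of free RNA in values of this size was not tested.

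**Figure D1:**
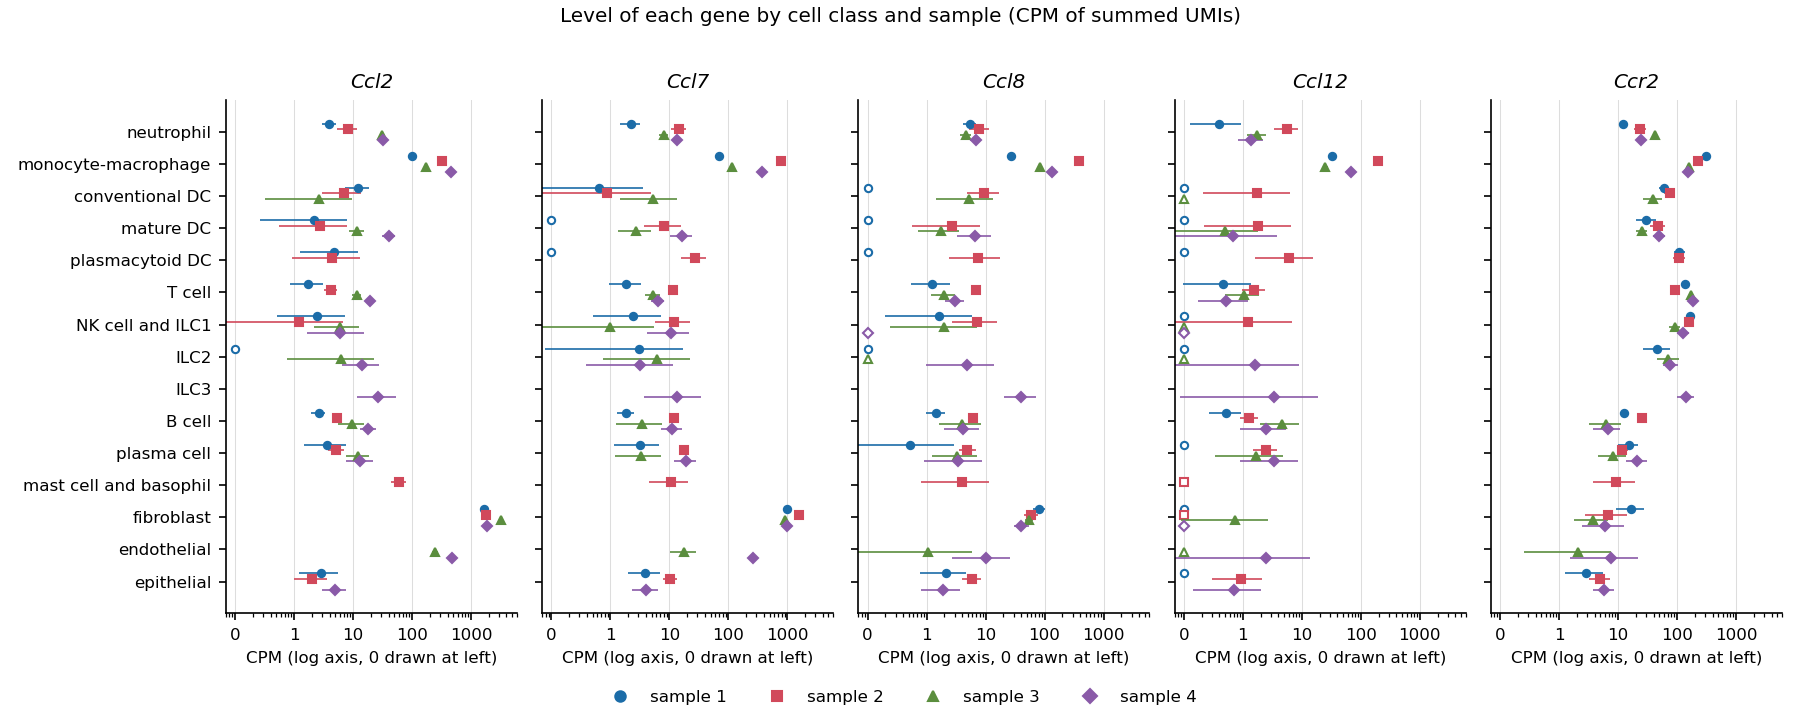
Level of each of the 5 genes (CPM of summed UMIs, log axis, with 0 drawn as an open symbol at the left) in each cell class with at least 50 cells, by sample, with exact 95% Poisson intervals. Ccl2 and Ccl7 reach their highest values in fibroblasts in all 4 samples, Ccl12 reaches its highest in monocyte-macrophage cells, and Ccr2 is near the level of B cells in fibroblasts.

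Ccr2 had another distribution. It stood at 308, 229, 162 and 155 CPM in monocyte-macrophage cells, at 136, 93.6, 171 and 188 CPM in T cells, and at 162, 157, 90.7 and 127 CPM in NK cells and ILC1. The order of the first 2 classes was not the same in all samples. Monocyte-macrophage cells were 2.27 and 2.44 times above T cells in samples 1 and 2, T cells were ahead in sample 4, and in sample 3 the intervals overlapped. Plasmacytoid dendritic cells (DCs), read in samples 1 and 2, were at 109.5 and 108.9 CPM, and conventional DCs, read in samples 1 to 3, were at 60.2, 76.2 and 39.5 CPM. Fibroblasts were at 16.6, 6.8, 3.72 and 6.05 CPM, within the range of 6.30 to 25.7 CPM in B cells or below it. So the class highest in Ccl2 and Ccl7 had Ccr2 at the level of B cells or below.

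The share of cells with a UMI depends on depth, so each cell was also thinned to 1000 UMIs. Of monocyte-macrophage cells, 25.1%, 20.2%, 14.2% and 14.0% then had a Ccr2 UMI in samples 1 to 4, against 0.761%, 1.57%, 0.660% and 0.459% of B cells. Unthinned, the shares were 74.2%, 50.4%, 48.8% and 42.2% of monocyte-macrophage cells (median 9141, 6365, 7028 and 6043 UMIs) and 4.51%, 9.41%, 2.28% and 3.07% of B cells (median 5378, 4693, 4622 and 3997 UMIs). The thinned share for Ccl2 was 7.69%, 13.5%, 10.7% and 22.8% of monocyte-macrophage cells and at most 1.32% of B cells. For Ccl7 it was 3.81%, 21.8%, 5.90% and 16.8%, for Ccl8 1.28%, 12.6%, 3.76% and 5.50%, and for Ccl12 2.32%, 8.53%, 2.0% and 4.67%. In fibroblasts 55.4%, 57.6%, 70.2% and 51.8% of thinned cells had a Ccl2 UMI. Thinned, Ccr2 had the highest share of the 5 genes in samples 1 and 3, Ccl7 in sample 2 and Ccl2 in sample 4.

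To see where in the monocyte-macrophage class the members lay, its cells were split by UMIs of Ly6c2, a surface marker of recruited monocytes, and of C1qa, C1qb and C1qc, complement genes of mature macrophages. Cells with Ly6c2 and at most 2 C1q UMIs (Ly6c2+ C1q-) numbered 868, 249, 935 and 446 in samples 1 to 4. Cells with no Ly6c2 and at least 3 C1q UMIs (Ly6c2- C1q+) numbered 674, 803, 972 and 934. The gates did separate monocyte from macrophage genes. Of 12 recruited monocyte genes, 9 were past 2-fold higher in Ly6c2+ C1q- cells in every sample, and of 12 resident macrophage genes tested 10 were past 2-fold lower, the gate genes themselves included. Over all 8201 genes tested, 1.8% were past 2-fold higher and 3.91% past 2-fold lower in every sample, with a median log2 difference of -0.14.

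Ccl8 showed the widest gap of the 5 members between these gates. It stood at 97.6, 588, 219 and 264 CPM in Ly6c2- C1q+ cells and at 0.550, 6.38, 1.87 and 2.75 CPM in Ly6c2+ C1q- cells, so the gates did not overlap. The monocyte level was 0.00563 to 0.0109 times the macrophage level, and it was within or below the range of B cells, apart from 6.38 CPM in sample 2, which lay just above it. Ly6c2+ C1q+ cells lay between these gates in every sample, at 4.46, 303, 17 and 35.3 CPM. Ccl7 went the same way, with 152, 1138, 261 and 661 CPM in Ly6c2- C1q+ cells and 21.9, 33.7, 26.6 and 69.5 CPM in Ly6c2+ C1q- cells. Its ratio was 0.144, 0.0296, 0.102 and 0.105, and the lowest macrophage level of any sample was above the highest monocyte level.

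Ccl12 was lower in Ly6c2+ C1q- cells in 4 of 4 samples, but by an amount that varied. The macrophage gate held 57.1, 268, 51.3 and 125 CPM and the monocyte gate 22.0, 3.48, 8.13 and 12.5 CPM. The ratio was 0.386 in sample 1 and 0.0130 in sample 2, a spread far outside counting error (0.323 to 0.460 and 0.00476 to 0.0284).

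Ccl2 was lower beyond counting error in monocytes in samples 2 and 4 only. It stood at 97.5, 120, 185 and 407 CPM in Ly6c2+ C1q- cells and at 97.3, 408, 192 and 512 CPM in Ly6c2- C1q+ cells. The ratio was 1.0 (0.902 to 1.11) and 0.966 (0.898 to 1.04) in samples 1 and 3, 0.795 (0.745 to 0.848) in sample 4 and 0.293 (0.253 to 0.338) in sample 2. So in samples 1 and 3 Ccl2 differed between monocytes and macrophages by less than counting error, while Ccl7 was lower in monocytes in 4 of 4 samples.

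Ccr2 went the other way. It stood at 373, 413, 242 and 219 CPM in Ly6c2+ C1q- cells, at 312, 253, 154 and 182 CPM in Ly6c2+ C1q+ cells, and at 194, 137, 80.03 and 107 CPM in Ly6c2- C1q+ cells. The remaining cells, with no Ly6c2 and at most 2 C1q UMIs (Ly6c2- C1q-), numbered 435, 207, 658 and 324. Ccr2 stood there at 337, 412, 188 and 180 CPM, above Ly6c2- C1q+ and below Ly6c2+ C1q- cells in every sample. In sample 2 it was nearly equal to Ly6c2+ C1q- cells. A Ccr2 level above that of Ly6c2- C1q+ cells was thus not limited to cells with Ly6c2. The monocyte gate was above the macrophage gate by 1.92, 3.01, 3.02 and 2.05 times. Since sample 1 was under 2-fold, Ccr2 did not count among the 1.8% of genes past 2-fold higher in every sample, whereas Ccl7, Ccl8 and Ccl12 were among the 3.91% past 2-fold lower. At a threshold of 1.5-fold Ccr2 did count, where 328 of the 8201 genes tested were higher in every sample. Even in Ly6c2- C1q+ cells 58.3%, 36.2%, 29.2% and 28.8% of unthinned cells had a Ccr2 UMI.

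**Figure D2:**
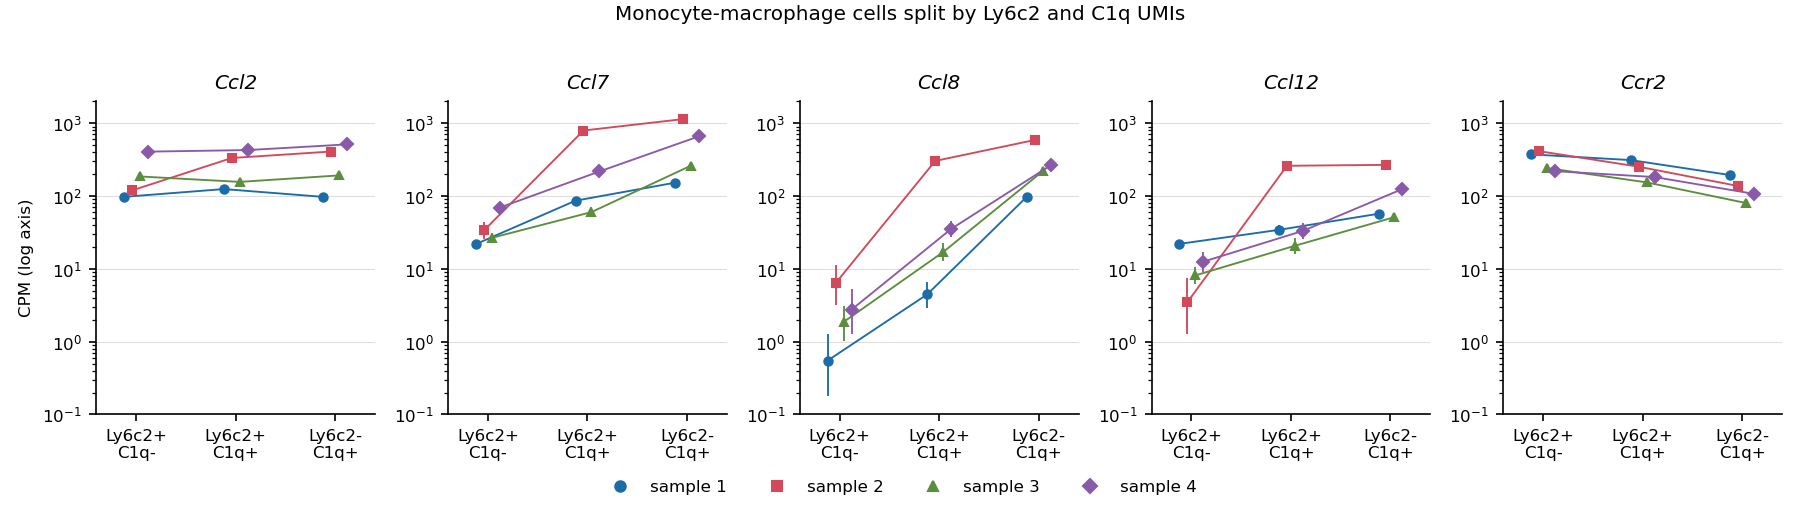
Level of each gene (CPM, log axis) in monocyte-macrophage cells gated as Ly6c2+ C1q-, Ly6c2+ C1q+ and Ly6c2- C1q+, by sample, with exact 95% Poisson intervals and a line joining the gates of a sample. Ccl8 climbs from at most 6.38 to at least 97.6 CPM, Ccl7 and Ccl12 climb by less, Ccl2 is nearly level in samples 1 and 3, and Ccr2 is lower in macrophages in all 4 samples.

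The other genes of the chemokine system were read against the 1.8% of all genes past 2-fold higher and 3.91% past 2-fold lower, and counts this small cannot be told from those shares. Of 15 other CC chemokines 8 passed the filter on low values and 0 were past 2-fold in every sample. Ccl4, a chemokine of activated macrophages, ranged from 278 to 1352 CPM in Ly6c2+ C1q- cells and from 420.1 to 2095 in Ly6c2- C1q+ cells. Ccl9 ranged from 387 to 682 and from 198 to 599.9 CPM. Of 14 CC and atypical receptors 5 passed the filter, and the only one of them past 2-fold in every sample was Cx3cr1, the fractalkine receptor of resident macrophages, at 11 to 13.3 CPM in monocytes and 37.7 to 162 CPM in macrophages. Ccr1 ranged from 406 to 465 and from 340.3 to 400.1 CPM. Of 8 interferon-induced genes that passed the filter 0 were past 2-fold in every sample. Of 11 genes induced by NF-kB, the factor that drives many inflammatory genes, 1 was past 2-fold, the neutrophil chemokine Cxcl1, which was lower in monocytes. Of 10 genes of dissociation and stress 2 were past 2-fold lower in monocytes, Fosb and Hspa1a. The stress genes together stood at 1742, 2191, 3109 and 3014 CPM in Ly6c2+ C1q- cells and at 2710, 5109, 3878 and 5519 CPM in Ly6c2- C1q+ cells, so they were higher in macrophages in 4 of 4 samples, as Ccl7, Ccl8 and Ccl12 were. Their part in the chemokine values was not tested.

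Within C1q+ cells, those with a UMI of Mrc1, the mannose receptor of resident macrophages, held more of every ligand. Ccl8 stood at 115, 729, 234 and 257 CPM in Mrc1+ cells and at 6.34, 73.3, 18.4 and 20.5 CPM in Mrc1- cells, and the ratio was 9.95 to 18.2. Ccl7 stood at 245, 1457, 293 and 652 CPM against 28.8, 150, 25.5 and 171 CPM, a ratio of 3.81 to 11.5. The ratio was 4.40 to 11.3 for Ccl12 and 2.10 to 5.25 for Ccl2, with Mrc1+ cells higher in 4 of 4 samples for both. Ccr2 was lower in Mrc1+ cells in 4 of 4 samples, at 204, 109, 73.7 and 112 CPM against 285, 276, 155 and 177 CPM. Deeper cells are more likely to show an Mrc1 UMI, and the part of depth in this split was not tested.

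Cells marked by Cxcl9 and Cxcl10, chemokines induced by interferon gamma, made up 30.3%, 11.8%, 13.8% and 11.4% of the class. Ccl8 was 1.44 to 3.03 times and Ccl12 1.16 to 2.23 times the level of the other cells. For Ccl8 the difference was beyond counting error in 4 of 4 samples, and for Ccl12 in samples 1 to 3, since sample 4 gave 1.16 (0.972 to 1.39). In sample 1 the Ccl8 UMIs lay in 30 of these cells and 64 of the others, 3.95% and 3.66% unthinned. That ratio thus rests on few cells, which counting error does not cover. Ccl7 was higher in samples 2 to 4 and lower in sample 1. Ccl2 was higher in samples 2 and 4, lower in sample 1, and within counting error in sample 3, at 1.02 (0.935 to 1.11). Ccr2 was 0.649 to 0.827 times the level of the other cells. Cells with Arg1 or Mmp12, enzymes of tissue remodelling macrophages, showed no shared direction for the ligands. Ccl7 and Ccl12 were higher in sample 1 and lower in samples 2 to 4, Ccl2 was within counting error in sample 4 and Ccl8 in sample 2. These cells had 0.619 to 0.840 times the Ccr2 of the others in 4 of 4 samples.

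The top 10% of monocyte-macrophage cells held at least 65.2% of the UMIs of each ligand in every sample, lowest for Ccl2 in sample 4. For Ccr2 the top 10% held 36.0% to 51.9%. The top 1% of monocyte-macrophage cells held 78.0%, 33.6%, 57.8% and 49.7% of the Ccl8 UMIs of the class in samples 1 to 4, and a single cell held up to 181 UMIs. For Ccl7 the top 1% held 57.8%, 21.9%, 48.2% and 27.4%, and for Ccl2 27.8%, 27.3%, 28.0% and 16.8%. For Ccl12 the top 1% held 46.5%, 35.1%, 49.0% and 30.3%. For Ccr2 the top 1% held 6.34%, 7.90%, 9.18% and 10.4%, a smaller part than for each ligand in 4 of 4 samples. In sample 4 Ccl2 was nonetheless seen in more cells than Ccr2, 901 against 821 unthinned.

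Pairs of ligands were found in the same cells more often than the product of their shares, a description with no test. After thinning to 1000 UMIs, Ccl2 and Ccl7 were seen together in 43, 132, 70 and 170 monocyte-macrophage cells, which was 5.88, 3.30, 3.89 and 2.30 times the product. Ccl7 and Ccl8 were together in 11, 87, 42 and 50 cells, or 9.03, 2.32, 6.65 and 2.80 times the product. Ccl8 and Ccr2 were rarely together, in 1, 8, 4 and 2 cells where the product gave 8.04, 34.8, 15.2 and 14.9. Ccl2 with Ccr2 stood at 0.850, 0.946, 0.947 and 0.859 times the product. Within Ly6c2- C1q+ cells alone, Ccl8 with Ccr2 remained at 0.208, 0.332, 0.419 and 0.212 times the product. In fibroblasts Ccl2 with Ccl7 stood at 1.22 to 1.36 times.

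The cells were also clustered on variable genes that left out the 5 members. The values of a cluster are a description, since the genes of the same cells formed it, and the clusters named here were chosen after their values were seen. Among monocyte-macrophage clusters, cluster 17 held 39, 363, 98 and 170 cells and was read in samples 2 to 4. Its leading genes beside the ligands were Vcam1, Mrc1, C1qa, C1qc and Pf4. Ccl8 stood there at 1155, 1151 and 1002 CPM in samples 2, 3 and 4, Ccl7 at 1766, 1568 and 1942 CPM, Ccl12 at 520.2, 283 and 296 CPM and Ccl2 at 586, 946 and 1196 CPM. Ccr2 stood at 27.2, 18.3 and 14.9 CPM, against 25.7, 6.30 and 6.62 CPM in B cells of the same samples. Cluster 10, led by Pf4, C1qa, C1qc and Mrc1, was lower in Ccl8, at 63.5, 119, 123 and 80.4 CPM in samples 1 to 4, and higher in Ccr2, at 127, 180, 73.8 and 133 CPM.

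Clusters 12 and 4 held more Ccr2 than cluster 10 in all samples. Cluster 12, led by Chil3, Vcan and Fn1, had Ccr2 at 364, 367, 221 and 197 CPM and Ccl8 at 0.195, 5.14, 2.44 and 4.64 CPM. Ccl2 in this cluster stood at 153, 156, 182 and 390.1 CPM, above or near the level of cluster 10 in samples 1, 3 and 4. Cluster 4, led by Aif1, Tgfbi and Fcgr4, had Ccr2 at 419, 489, 231 and 270 CPM and Ccl2 at 84.6, 30.3, 53.9 and 209 CPM. Cluster 11, led by Cxcl9 and Nos2 and read in samples 1 and 3, had the least Ccl2 of these clusters in both samples, at 14.3 and 27.2 CPM. Cluster 6, led by Adgre4, Cd36, Ace and Treml4, stayed unnamed because its cells had a median of 1145.5 UMIs (0.188 times that of their own samples) and none of its 10 leading genes was a marker of its best class. It held Ccl8, which was itself among those 10 genes, at 108, 307, 54.0 and 127 CPM, on 31, 94, 17 and 49 UMIs.

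**Figure D3:**
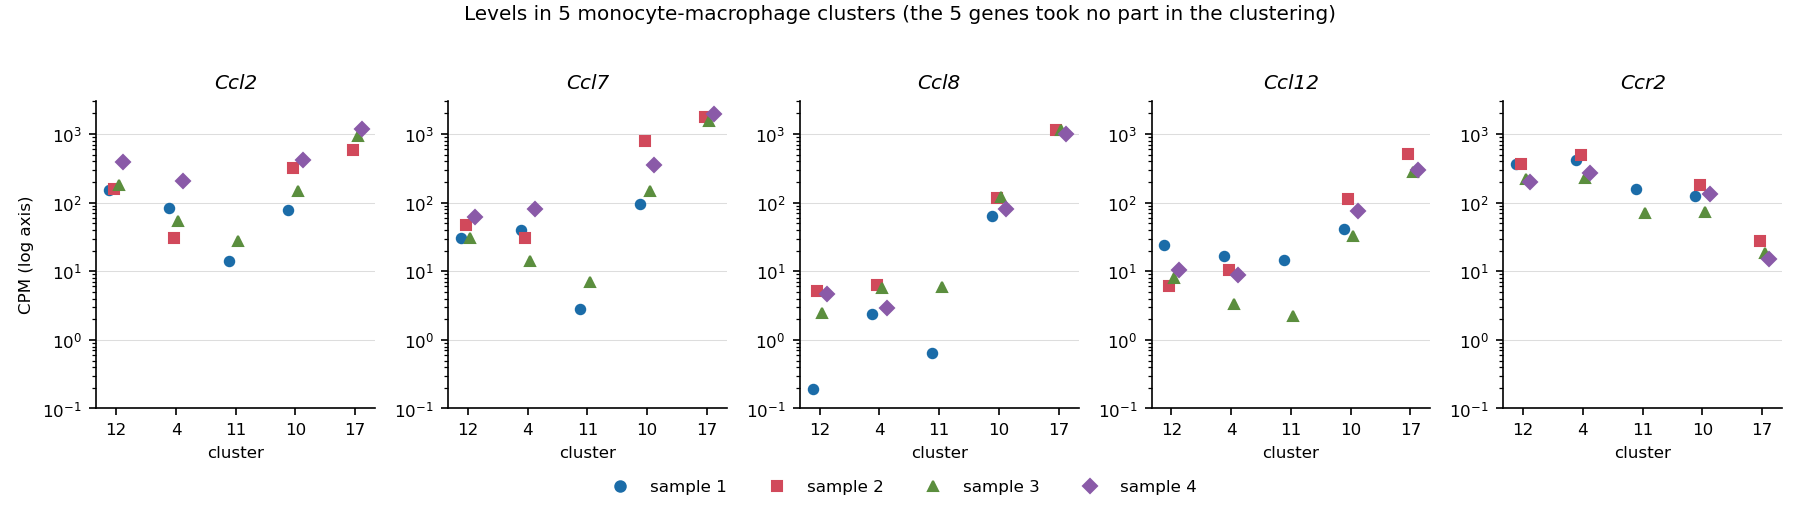
Level of each gene (CPM, log axis) in 5 monocyte-macrophage clusters (12, 4, 11, 10 and 17), by sample, for clusters with at least 50 cells in the sample. The 4 ligands are highest in cluster 17 in each sample where it was read, where Ccr2 is at 14.9 to 27.2 CPM.

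Cluster 17 made up 0.389%, 3.07%, 0.964% and 2.25% of kept cells in samples 1 to 4. It held 40.6%, 71.5%, 41.1% and 49.9% of all Ccl8 UMIs of the sample and 18.9%, 69.1%, 33.9% and 32.4% of the Ccl12 UMIs. It held 21.8%, 44.8%, 22.2% and 30.8% of the Ccl7 UMIs and 4.70%, 27.9%, 5.09% and 12.7% of the Ccl2 UMIs. Between 0.174% and 0.967% of the Ccr2 UMIs lay there. The shares of sample 1 rest on fewer than 50 cells of cluster 17. In sample 2, where cluster 17 was most frequent, Ccl7, Ccl8 and Ccl12 were also highest over the monocyte-macrophage class. For Ccl8, the level inside the cluster spanned 1002 to 1155 CPM in samples 2 to 4, while the level of the whole class spanned 83.2 to 390.1 CPM in the same samples. Ccl2 and Ccl12 varied more between these samples inside the cluster (values above), and its level was not read in sample 1. The part of cluster frequency in the differences between samples was not tested.

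**Figure D4:**
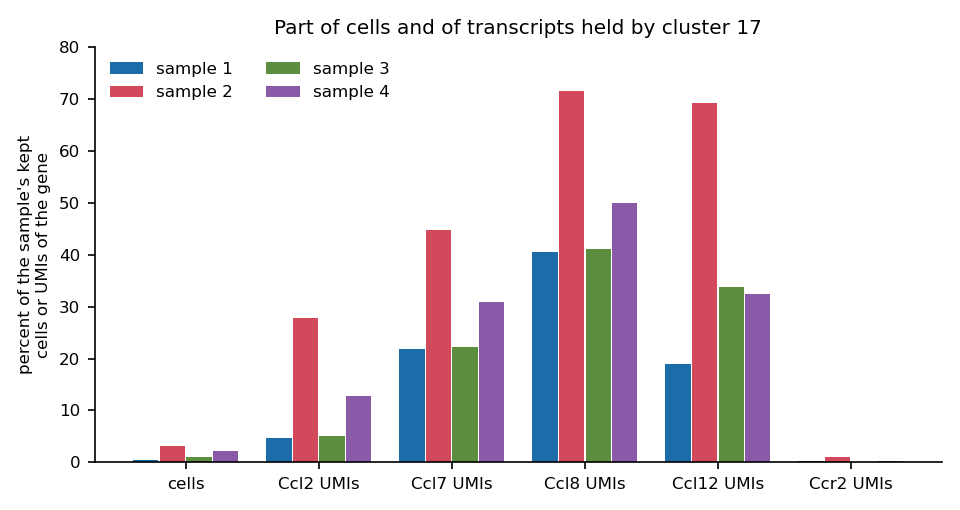
Percent of the kept cells of a sample, and of all UMIs of each gene in them, that lay in cluster 17, by sample. The cluster held 0.389% to 3.07% of cells and 40.6% to 71.5% of Ccl8 UMIs, and under 1% of Ccr2 UMIs.

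The balance of Ccl7 and Ccl2 differed between cells and samples. The ratio of Ccl7 to Ccl2 UMIs was 0.713, 2.49, 0.683 and 0.816 in monocyte-macrophage cells and 0.593, 0.861, 0.290 and 0.536 in fibroblasts, lower in fibroblasts in 4 of 4 samples. In sample 2 the monocyte-macrophage ratio (2.39 to 2.60) was well apart from the other samples. B cells, which hold few of these UMIs, gave 0.691, 2.27, 0.353 and 0.614, high in the same sample.

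Outside the monocyte-macrophage class, Ccr2 was carried by part of the T cells. Cells with a UMI of Foxp3, the factor of regulatory T cells, held 432, 361, 247 and 323 CPM. Unthinned, 75.5%, 74.2%, 74.8% and 82.5% of them had a Ccr2 UMI. Deeper cells are more likely to show a Foxp3 UMI, and the part of depth in these shares was not tested. Cd4+ Foxp3- cells held 102, 106, 112 and 127 CPM, and Cd8+ cells 41.3, 46.1, 98.8 and 61.2 CPM. Foxp3+ cells were above Cd4+ Foxp3- cells by 4.22, 3.42, 2.21 and 2.54 times, and their level did not overlap with either of the others in any sample. In samples 1 to 4 the Foxp3+ level was also above the whole monocyte-macrophage class. Against the Ly6c2+ C1q- cells of that class, at 373, 413, 242 and 219 CPM, it was higher in samples 1 and 4. It was lower in sample 2 and nearly equal in sample 3, both with overlapping intervals. A cluster of T cells led by Foxp3, Tnfrsf4 and Ctla4 (cluster 0) had Ccr2 at 503, 485, 394 and 460 CPM, and a T-cell cluster led by Lef1 and Tcf7, genes of naive T cells (cluster 1), had 4.42, 5.47, 20.1 and 24.5 CPM. Cells with Trdc, a gamma delta T-cell receptor gene, numbered at least 50 only in sample 2, where 221 cells held 54.5 CPM.

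**Figure D5:**
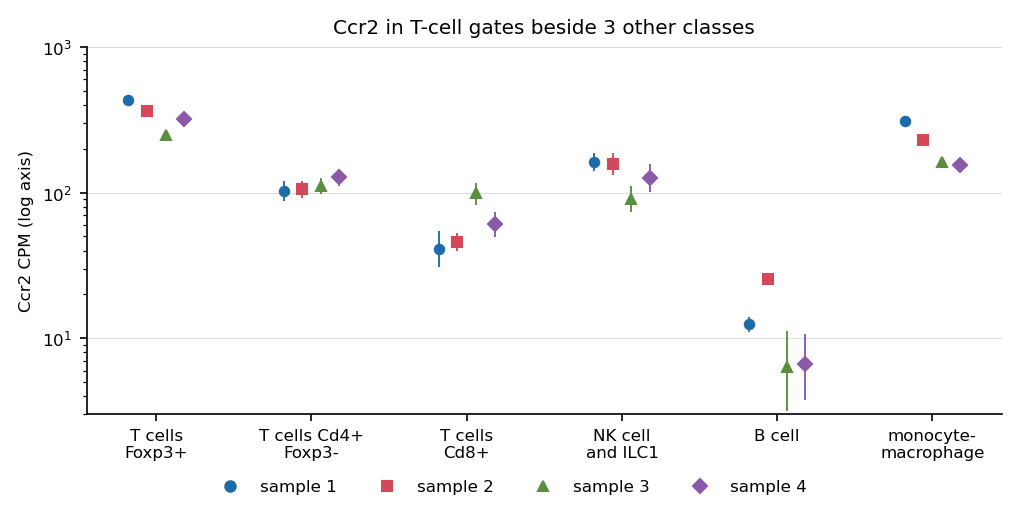
Ccr2 level (CPM, log axis) in 3 gates of T cells, in NK cells and ILC1, in B cells and in the monocyte-macrophage class, by sample, with exact 95% Poisson intervals. Foxp3+ T cells are the highest T-cell gate in all 4 samples, at 247 to 432 CPM, and B cells are at 6.30 to 25.7 CPM.

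Across the CC family the leading class was sought among the 8 classes read in all samples. Ccl5 was highest in NK cells and ILC1 in 4 of 4 samples, at 3092 to 4927 CPM. Ccl22 and Ccl17, ligands of Ccr4, were highest in mature DCs in 4 of 4, at 507 to 936 and 57.9 to 85.6 CPM. Ccl11, the eotaxin that draws eosinophils, was highest in fibroblasts in 4 of 4, at 389.8 to 980.4 CPM, as Ccl2 and Ccl7 were. Ccl9 and Ccl24 were highest in monocyte-macrophage cells in 4 of 4, at 314 to 645 and 15.7 to 49.4 CPM, as Ccl12 was. Ccr8, the receptor of mouse Ccl8, was at most 5.10 CPM in T cells, its highest class in 4 of 4 samples.

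The genes most like each member were sought over 32 points of class and sample, on log2(CPM + 1). The points share libraries and classes, so the correlations are descriptions. Among the 5 genes most like Ccr2 was Dok2 (r = 0.90), and among those most like Ccl2 were Fblim1 (0.96) and Vcam1 (0.96). Ccl7 was most like Pmp22 (0.95), Gas6 (0.94) and Vcam1 (0.94). Ccl8 was most like Mertk (0.92) and Ccl7 (0.90), and Ccl12 most like Ms4a7 (0.90), Cd163 (0.90) and C1qc (0.90). Mertk and Ms4a7 were among the markers that defined the monocyte-macrophage class, so their likeness to genes high in that class was partly fixed in advance. Between the members, Ccl2 and Ccl7 gave 0.93, while Ccl2 gave 0.28 with Ccl12 and -0.20 with Ccr2. Over 16 points of the inner gates, Ccl8 was most like Hpgds (0.98) and Tbxas1 (0.97), and Ccl2 most like Adgrg6 (0.93) and Ccl3 (0.91).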

How the data were processed

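Colonic lamina propria CD45+ leukocytes of 4 samples were sequenced by 10x single-cell RNA-seq. The deposited matrices hold UMI counts, not normalized, for each gene in each cell. The submitters' processing notes name Cell Ranger 5.0.0, STAR, Seurat and mm10, while the matrix headers name Cell Ranger 7.0.1. Whether intronic reads were counted is not given in the sources used here, and it can change levels.

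Cells with at least 200 genes and under 20% mitochondrial UMIs were kept, and the highest Scrublet doublet scores were removed at 0.8% per 1000 cells. A cell was placed where the mean of its scaled marker levels was at least 0.15 and 1.5 times the next class. Markers were scaled to their 95th percentile among detecting cells. The 75th percentile was tried first and left after class counts were seen. Cells are not replicates and the samples have no group, so no p-value was computed. Fold counts used log2(CPM + 1) on genes with at least 10 CPM in a gate of 1 or more samples, past 2-fold in every sample. Clusters used 2000 variable genes without the members, 30 components, 15 neighbours and Leiden at resolution 1. Clusters of low depth that also had no marker of their best class among their top 10 genes, and those with more markers of another class there, stayed unnamed, a rule applied after a first naming. Named genes were the members, gene lists given by counts past 2-fold with 2 to 4 members of highest level, and the 5 genes of highest Pearson correlation with each member. Some genes that met this rule are not reported here. Other genes and clusters were named after their values were seen. Members and lists were chosen with earlier results of these data known, and the inner-gate UMI limits were set after class levels were seen. PCR duplicates are removed by UMIs, but intervals cover counting error only. Scripts ran in Python 3.11.15 with scanpy 1.11.5 and scipy 1.17.1, and were tested on simulated counts. The alternatives are given in the closing section.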

Additional observations from a re-analysis of the deposited data

How the results depend on the processing

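Of 222 alternative values for 28 results, 207 moved by less than the spread between samples, 15 moved by more and 0 changed direction. Medians with a sample left out had to stay within the range of the samples. Levels and shares have no direction to reverse, so part of these counts was fixed in advance. The share of monocyte-macrophage cells with a UMI depended most on depth. Its median over samples without thinning was 30.2% for Ccl2, 23.1% for Ccl7, 9.99% for Ccl8, 12.5% for Ccl12 and 49.6% for Ccr2, and at 2000 UMIs it was 6.58% for Ccl12 and 28.5% for Ccr2. With all kept cells in the denominator, the share of UMIs in monocyte-macrophage cells was 78.7% for Ccl8 and 86.2% for Ccl12, and with no doublet removal it was 90.3% for Ccl12. The Ccl8 ratio between the inner gates was 0.0176 after thinning to 1000 UMIs. Genes past the fold numbered 73 higher and 119 lower with a pseudocount of 10 CPM, and 328 higher and 740 lower at 1.5-fold, against 148 and 321. Scaling markers to the 75th percentile, chosen after seeing the data, moved no level or inner ratio beyond the spread. Leaving out each sample in turn moved the median ratio between the inner gates over 0.795 to 0.966 for Ccl2, 0.102 to 0.105 for Ccl7, 0.00851 to 0.0104 for Ccl8, 0.101 to 0.158 for Ccl12 and 2.05 to 3.01 for Ccr2. Leaving out sample 2 or sample 4 took the median Ccl12 level in monocyte-macrophage cells from 50.8 to 33.0 CPM, the share with a Ccl7 UMI from 11.4% to 5.90% and that with a Ccl12 UMI from 3.5% to 2.32%. Leaving out sample 1 or sample 3 took Ccl7 with Ccl8 from 4.73 to 2.80 times the product of their shares. No paired analysis was possible because the labels put no sample in a group. The unplaced cells, the small conventional DC and fibroblast classes and the missing genotype limit what can be read, and the level of free RNA was not measured.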
